A study of Arabidopsis thaliana with 21 samples.

Results

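The genes described here are Arabidopsis transcripts that were higher after 1 h of the auxin indole-3-acetic acid (IAA), and for which IAA added little when either of 2 compounds was also present. They were chosen from group means of log2 signal on ATH1 arrays. A probe set, the group of oligonucleotides that reports one transcript, was taken where IAA minus DMSO was at least 0.6 and where IAA/A minus A and IAA/B minus B were both below 0.3. These thresholds held for 87 probe sets, and 4 of them (AT4G37295, XTH26, AT3G09280 and AT2G28690) were left out by name or gene family. The remaining 83 of 22746 probe sets were split by the compounds alone: 15 were at least 0.6 above DMSO with A and with B, 6 with 1 compound only, and 62 with neither.

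RNA was taken from 7-day-old seedlings grown in liquid culture in the light, and every group was treated for 1 h. The labels name a solvent for the DMSO controls only. The experiment text of the arrays adds the accession Col-0 and medium with sucrose. The 21 arrays comprised 3 with 5 µM IAA and 10 µM compound A (IAA/A), 4 with 10 µM compound A (A), 3 with 5 µM IAA and 10 µM compound B (IAA/B), 3 with 10 µM compound B (B), 4 with 5 µM IAA (IAA) and 4 with solvent (DMSO). Both compounds are known here only by their letters. Nothing in the labels states that replicate arrays were separate cultures. The spread behind the p-values may therefore be technical, and the number of arrays limits the precision.

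Auxin is perceived by the F-box proteins TIR1 and AFB, which in its presence lead the Aux/IAA repressors to degradation. Auxin response factors are then free to activate early genes such as GH3 conjugating enzymes, Aux/IAA genes themselves and LBD transcription factors that act in lateral root formation. Among the genes of these families that the annotation names, 0 of 7 Aux/IAA genes, 0 of 5 GH3 genes and 0 of 3 LBD or HD-ZIP II genes were in the chosen set. Further family members may lie among probe sets without a named gene. IAA raised 2, 3 and 3 of them (limma, adjusted p under 0.05; 1.43% of all probe sets were called higher), with list medians of 0.28, 2.95 and 2.93, beside −0.0033 over all probe sets. GH3.3, which conjugates IAA to amino acids, was 4.82 higher in IAA/A than in A, 4.46 higher in IAA/B than in B and 4.91 higher in IAA than in DMSO on the log2 scale. IAA29, an Aux/IAA repressor, gave 3.77, 4.19 and 3.75 in the same comparisons. LBD29, a lateral root regulator, gave 1.20, 2.39 and 3.90. With A present 2, 3 and 3 genes of these lists were called higher (0.756% of all probe sets), and with B present 3, 3 and 3 (1.14%).

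The label of 1 array did not match its experiment text. The second IAA array is described there as treated with compound B, whereas the text of the other 20 arrays matches the labels. Its signals were set against genes that separate the groups: GH3.3 was 13.3 on it, 12.8 to 13.2 on the other IAA arrays and 8.45 to 8.65 on the B arrays. GRX480, a glutaredoxin that was higher with both compounds, was 5.18 on it, 5.37 to 6.19 on the other IAA arrays and 10.3 to 10.7 on the B arrays. Its correlation over all probe sets was 0.996 to 0.997 with the other IAA arrays and 0.972 to 0.976 with the B arrays. It was kept as IAA, as labelled. Without it, IAA minus DMSO of the 83 probe sets ran from 0.49 to 1.58 with a median of 0.68, against 0.60 to 1.66 and 0.74 with it, and 20 of them no longer met the rule.

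Some other arrays decided who was a member. The solvent array DMSO 2 was lower than the mean of its group by a median of 0.37 over the 83 probe sets, against 0.01 over all probe sets, and 33 of the 83 lost membership without it. In 19 of the 83, 18 in the group raised by neither compound, DMSO 2 was more than 1 log2 unit below every other DMSO array. The choice by IAA minus DMSO favours probe sets with a low DMSO array, and the same count was not made over all probe sets. Nothing is therefore read from this count about the array or the group. Leaving out A 2 removed 23, IAA 1 and IAA/A 3 removed 19 each, B 1 removed 15 and DMSO 4 removed 12. Of the 83, 21 met the rule whichever of the 21 arrays was left out, 4 of them raised by both compounds, 4 by one and 13 by neither. Without DMSO 2, DMSO 4, A 2 and IAA/B 1 together, 58 probe sets met the rule and 35 of them were among the 83.

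**Figure D1:**
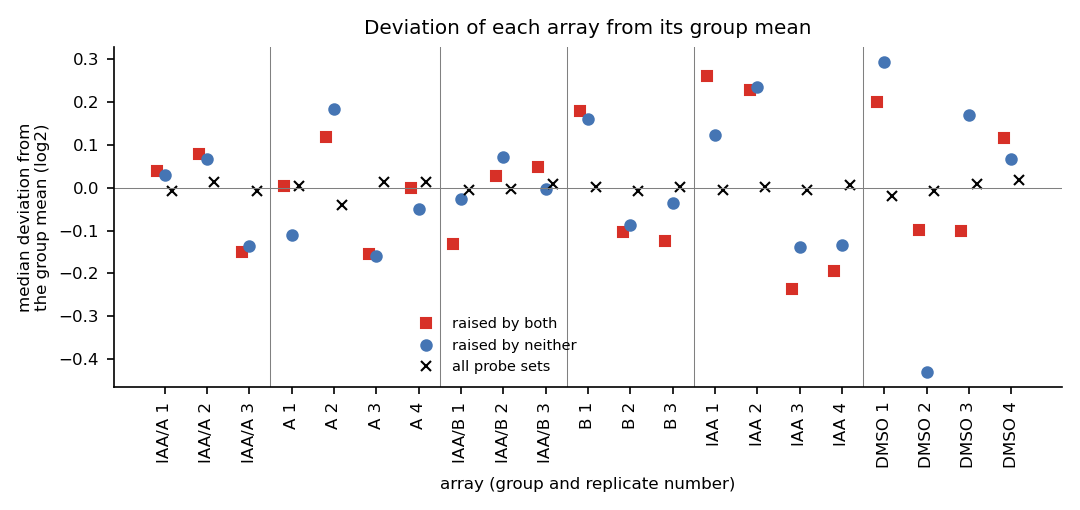
Median deviation of each array from the mean of its own group (vertical axis, log2 units), over the 15 probe sets raised by both compounds (squares), the 62 raised by neither (circles) and all 22746 probe sets (crosses), with the 21 arrays by group on the horizontal axis. The group raised by neither lies at −0.43 on DMSO 2 and at 0.29 on DMSO 1, while the median over all probe sets stays near 0 on every array.

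The members varied more between arrays of a group than other probe sets did, which the choice of probe sets by a difference can itself favour. Their median within-group SD was 0.15 in IAA/A, 0.26 in A, 0.19 in IAA/B, 0.23 in B, 0.26 in IAA and 0.45 in DMSO, whereas the medians over all probe sets were 0.09, 0.14, 0.11, 0.11, 0.09 and 0.15. Their median mean signal was 7.56, against 7.23 over all probe sets. All 4 IAA arrays lay above all 4 DMSO arrays in 58 of the 83, a count that the rule favours (4.33% of all probe sets). The platform annotation pairs 45 of the 83 with 1 gene, 2 with several and 36 with none, and genes are named below from single pairings. In 9 of the 83 (10.8%, against 4.66% of all probe sets) the probe set is of a design that can hybridise with several similar transcripts.

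Since the rule used IAA minus DMSO, IAA/A minus A and IAA/B minus B, and the compounds alone made the split, those differences are given as descriptions with the standard error of the fit. Their medians over the 83 were 0.05 for IAA/A minus A, −0.04 for IAA/B minus B and 0.74 for IAA minus DMSO.

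**Figure D2:**
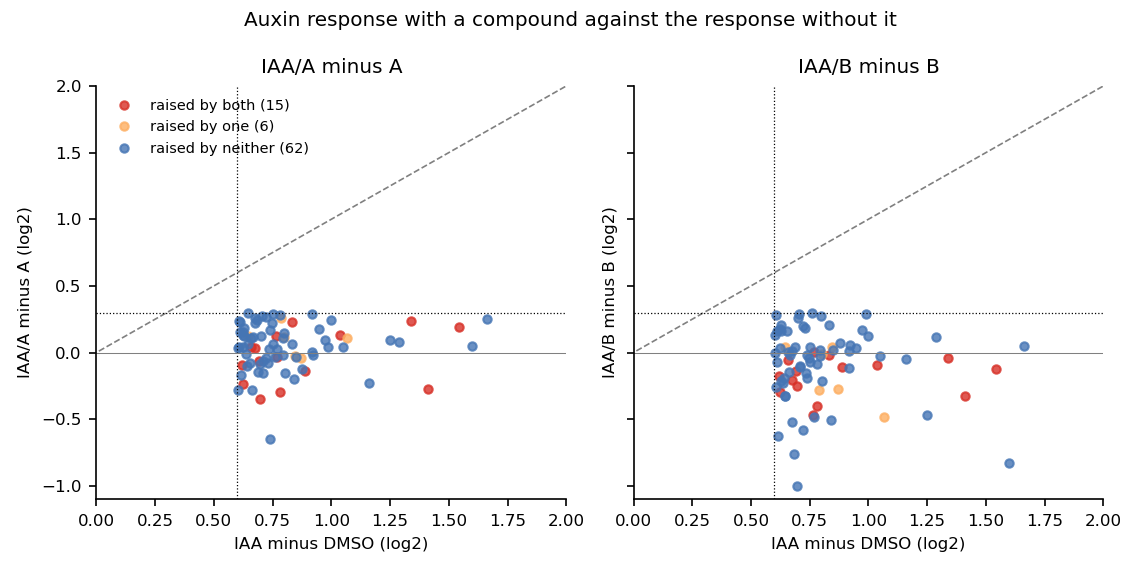
Each point is 1 of the 83 probe sets, with IAA minus DMSO on the horizontal axis and IAA/A minus A (left) or IAA/B minus B (right) on the vertical axis, all in log2 units and coloured by response to the compounds alone. Dotted lines are the thresholds of 0.6 and 0.3 that chose the points, and the dashed line marks an equal response with and without compound, below which every point lies by the rule.

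For the 62 probe sets raised by neither compound the level with IAA and a compound was mostly below that with IAA alone. IAA/A minus IAA had a median of −0.80 and IAA/B minus IAA one of −1.23. A alone and B alone differed from DMSO by medians of −0.04 and −0.22, with extremes of −1.83 to 0.57 and −3.19 to 0.53. All IAA/A arrays lay below all IAA arrays in 52 of the 62, and all IAA/B arrays also in 52 (19.7% and 13.2% of all probe sets). The rule and the split favour these counts, and nothing is read from them. The largest auxin response of the named genes was that of AT5G65320, a bHLH transcription factor. Its signals were 7.30, 7.70, 6.99 and 6.80 on the IAA arrays, against 5.76, 5.05, 5.63 and 5.70 on the DMSO arrays, a difference of 1.66 ± 0.18 (SE). With A they were 5.61, 5.65 and 5.76 in IAA/A, against 5.46, 5.34, 5.77 and 5.12 in A, and with B 5.33, 5.05 and 5.23 in IAA/B, against 5.09, 5.03 and 5.33 in B. Every IAA array was above every other array for this gene, and the 5 other groups overlapped or lay close together.

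AT1G49450, a WD40-repeat protein, showed the same arrangement. It had 6.89, 7.17, 6.41 and 6.26 on the IAA arrays, against 5.63, 4.87, 6.01 and 6.03 on the DMSO arrays. In IAA/A it had 5.53, 5.60 and 5.52, against 5.60, 5.37, 5.56 and 5.51 in A, and in IAA/B 5.10, 5.60 and 5.37, against 5.17, 5.41 and 5.56 in B. The IAA arrays did not overlap any other group, while DMSO 2 lay about 1 unit under DMSO 3 and DMSO 4. It met the rule in each of the 21 leave-outs, with IAA minus DMSO at 1.05 ± 0.21 (SE).

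AT3G03170 had tight solvent values. The IAA arrays gave 6.99, 7.25, 6.58 and 6.26 and the DMSO arrays 5.78, 5.81, 5.88 and 5.95. The IAA/A arrays gave 5.59, 5.55 and 5.53, against 5.25, 5.60, 5.59 and 5.76 on the A arrays, and the IAA/B arrays 5.67, 5.65 and 5.78, against 5.54, 5.71 and 5.83 on the B arrays. IAA minus DMSO was 0.92 ± 0.15 (SE), while IAA/A minus A and IAA/B minus B were 0.01 ± 0.16 (SE) and 0.01 ± 0.18 (SE), and the IAA arrays lay above all others. The A and IAA/A arrays all lay below the lowest DMSO array, by a narrow margin.

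AT1G19230, a member of the NADPH oxidase family that makes superoxide at the cell surface, had 7.38, 7.37, 6.84 and 6.92 on the IAA arrays, against 6.35, 6.46, 6.21 and 6.30 on the DMSO arrays. Its values were 6.43, 6.61 and 6.16 in IAA/A, against 6.43, 6.71, 5.92 and 6.12 in A. In IAA/B they were 6.03, 6.24 and 6.08, against 6.34, 5.89 and 6.07 in B. No IAA array overlapped another group, and the first and second IAA arrays lay above the other IAA arrays.

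AT3G46720, a UDP-glycosyltransferase, lay below its DMSO level with either compound. It had 5.86, 6.03, 5.83 and 5.89 in IAA, against 5.15, 5.02, 5.26 and 5.18 in DMSO, and −0.53 ± 0.09 (SE) for A minus DMSO and −0.52 ± 0.10 (SE) for B minus DMSO. In IAA/A it was 4.66, 4.65 and 4.73, against 4.51, 4.60, 4.43 and 4.94 in A, and in IAA/B 4.80, 4.57 and 4.66, against 4.77, 4.53 and 4.61 in B. None of its arrays with a compound reached the lowest DMSO array. AT2G23060, of an N-acyltransferase family, had 6.08, 6.79, 6.01 and 6.13 in IAA, against 5.21, 5.10, 5.26 and 5.43 in DMSO. Its IAA/A arrays at 5.46, 5.55 and 5.29 and its IAA/B arrays at 5.30, 5.46 and 5.43 all lay under the lowest IAA array.

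AT5G65320 no longer met the rule without A 3, and AT2G23060 without IAA/A 3. Besides AT1G49450, AT3G03170, AT1G19230 and AT3G46720, the named genes of this group that met it in every leave-out were AT1G29195, AT2G41380, a methyltransferase, TRM28, of a family that recruits the microtubule-associated protein TON1, and AT1G31690, a copper amine oxidase. Their IAA minus DMSO was 0.71, 0.85, 0.73 and 0.77, with −0.16, −0.03, −0.08 and 0.02 for IAA/A minus A and −0.10, 0.02, 0.19 and −0.49 for IAA/B minus B. AT1G29195 and TRM28 are named because they met the rule in every leave-out, an exception to the rule for names.

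PUCHI, an AP2/ERF transcription factor of lateral root primordia, differed between the compounds when IAA was present. It had 5.39, 5.51 and 5.62 in IAA/A and 6.26, 6.03 and 6.15 in IAA/B, beside 6.36, 6.49, 5.98 and 6.11 in IAA. The A arrays gave 5.48, 5.45, 5.65 and 5.58, the B arrays 5.83, 5.65 and 6.07 and the DMSO arrays 5.58, 5.10, 5.53 and 5.69. With IAA and A together every array was under every IAA array, whereas with IAA and B together the values lay within the range of IAA. Its IAA/B minus B of 0.298 lay just inside the threshold, and B minus DMSO was 0.38 ± 0.14 (SE). IAA/A minus IAA/B, which the rule did not use, was −0.64 ± 0.15 (SE, adjusted p = 0.0206), and A minus B was −0.31 ± 0.14 (SE, adjusted p = 0.194) (limma). The call with IAA was lost without IAA/A 1, IAA/A 2, IAA/B 1 or IAA/B 3, with an adjusted p of up to 0.121.

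**Figure D3:**
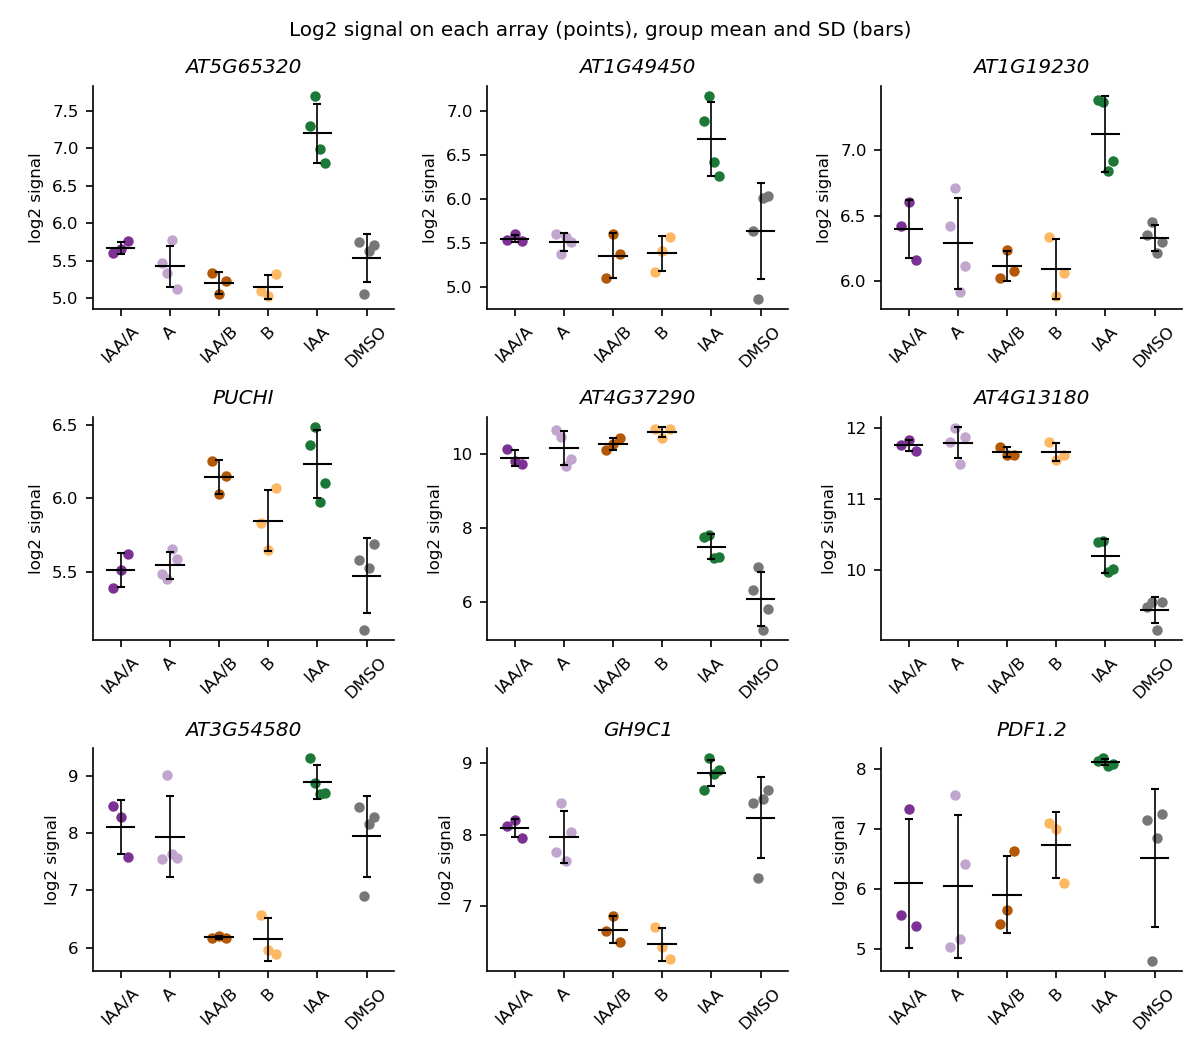
Log2 signal of 9 named genes (vertical axes, each with its own range that does not start at 0) in the 6 groups, with 1 point per array, the group mean as a line and the SD as bars. AT5G65320, AT1G49450 and AT1G19230 stand high in IAA alone, AT4G37290 and AT4G13180 are highest with a compound, and AT3G54580 and GH9C1 are lowest in IAA/B and B.

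In the 15 probe sets chosen as raised by both compounds, A minus DMSO exceeded IAA minus DMSO in 14 of the 15 and B minus DMSO in 9. Their median differences were 1.63 for A minus DMSO, 1.49 for B minus DMSO and 0.77 for IAA minus DMSO. IAA/A minus IAA and IAA/B minus IAA had medians of 0.67 and 0.51, so that for these genes the small response to IAA with a compound was measured on a raised level. All IAA/A arrays lay above all IAA arrays in 9 of the 15 (11.7% of all probe sets) and all IAA/B arrays in 8 (11.6%), while none of the 15 had all arrays below. The split favours these counts, and nothing is read from them.

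AT4G37290, which encodes a small secreted peptide precursor, had the widest range among the named genes. The A arrays gave 10.66, 10.46, 9.69 and 9.86 and the B arrays 10.67, 10.44 and 10.68, against 6.33, 6.95, 5.25 and 5.81 on the DMSO arrays. The IAA arrays gave 7.76, 7.81, 7.19 and 7.22, all above DMSO and all at least 1 unit below every array with a compound. It had 10.13, 9.81 and 9.74 in IAA/A, within the range of A, and 10.11, 10.27 and 10.43 in IAA/B, all below the B arrays. A minus DMSO was 4.08 ± 0.27 (SE), B minus DMSO 4.51 ± 0.29 (SE) and IAA minus DMSO 1.41 ± 0.27 (SE).

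AT5G14730 had a similar difference with the compounds alone. It had 10.92, 11.19, 10.68 and 10.88 in A and 11.13, 10.75 and 10.68 in B, against 6.95, 7.13, 6.94 and 6.05 in DMSO. In IAA it had 7.77, 7.61, 7.25 and 7.23, in IAA/A 10.67, 10.56 and 10.49 and in IAA/B 10.51, 10.57 and 10.73. Its response to IAA was the smaller one, at 0.70 ± 0.18 (SE) beside 4.15 ± 0.18 (SE) for A minus DMSO, and it no longer met the rule without DMSO 4 or IAA 1.

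AT4G13180, a short-chain dehydrogenase/reductase, gave 11.80, 12.01, 11.50 and 11.89 in A and 11.80, 11.56 and 11.63 in B, against 9.47, 9.55, 9.15 and 9.54 in DMSO. It gave 10.39, 10.41, 9.96 and 10.01 in IAA, 11.76, 11.84 and 11.69 in IAA/A and 11.74, 11.63 and 11.63 in IAA/B. The groups fell in 3 levels that did not overlap: DMSO lowest, IAA between, and the 4 groups with a compound highest. AT5G10830, a methyltransferase, had the same order, with 8.77, 8.55, 8.24 and 8.28 in IAA, against 7.81, 7.29, 8.18 and 8.10 in DMSO, and every array with a compound at 10 or above. Its IAA arrays lay above all DMSO arrays by a narrow margin, and it left the set without DMSO 2, IAA 1 or IAA 2.

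In AT2G32190, of the cysteine-rich transmembrane module family, and AT5G57910 levels with a compound overlapped those with IAA. AT2G32190 had 7.55, 7.47 and 7.15 in IAA/A, 6.57, 7.03 and 6.54 in IAA/B and 7.25, 7.23, 6.62 and 6.43 in IAA, against 5.93, 5.53, 5.000 and 4.91 in DMSO. With A alone it had 7.03, 7.28, 7.05 and 7.45 and with B alone 6.93, 6.88 and 6.70, and each of these groups overlapped with IAA and none with DMSO. AT5G57910 had 7.45, 7.58, 7.21 and 7.24 in IAA, against 6.62, 6.54, 6.46 and 6.31 in DMSO, with A minus DMSO at 1.17 ± 0.13 (SE) and B minus DMSO at 0.86 ± 0.14 (SE). The protein kinase genes AT1G77280 and AT2G39110, the RING-H2 gene AT4G09100 and AT5G65300 completed the named genes raised by both, with IAA minus DMSO of 0.78, 0.68, 0.76 and 0.83. A minus DMSO was 0.75, 1.06, 1.38 and 1.63 for them, and B minus DMSO 0.78, 1.39, 1.76 and 1.92. In the RefSeq annotation AT5G65300 lies near AT5G65320, with 1 coding gene between them, and AT5G65320 was in the group raised by neither.

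The 6 probe sets raised by one compound included 2 named genes. AT5G17760, of the AAA-ATPase family, had 8.95, 9.06, 8.90 and 8.997 in IAA, against 8.30, 8.37, 8.45 and 8.22 in DMSO, and 9.26, 8.94 and 8.89 in B. Its A arrays, at 8.79, 8.71, 8.43 and 8.71, overlapped with DMSO, and no IAA or B array did. AT1G80130, a tetratricopeptide repeat protein, had 10.72, 10.70, 10.43 and 10.50 in IAA, against 10.13, 8.12, 10.10 and 10.85 in DMSO, where DMSO 2 was the only array under 10. Its A arrays gave 10.74, 8.95, 10.70 and 10.88, with A 2 alone under 10, and it no longer met the rule without DMSO 2.

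**Figure D4:**
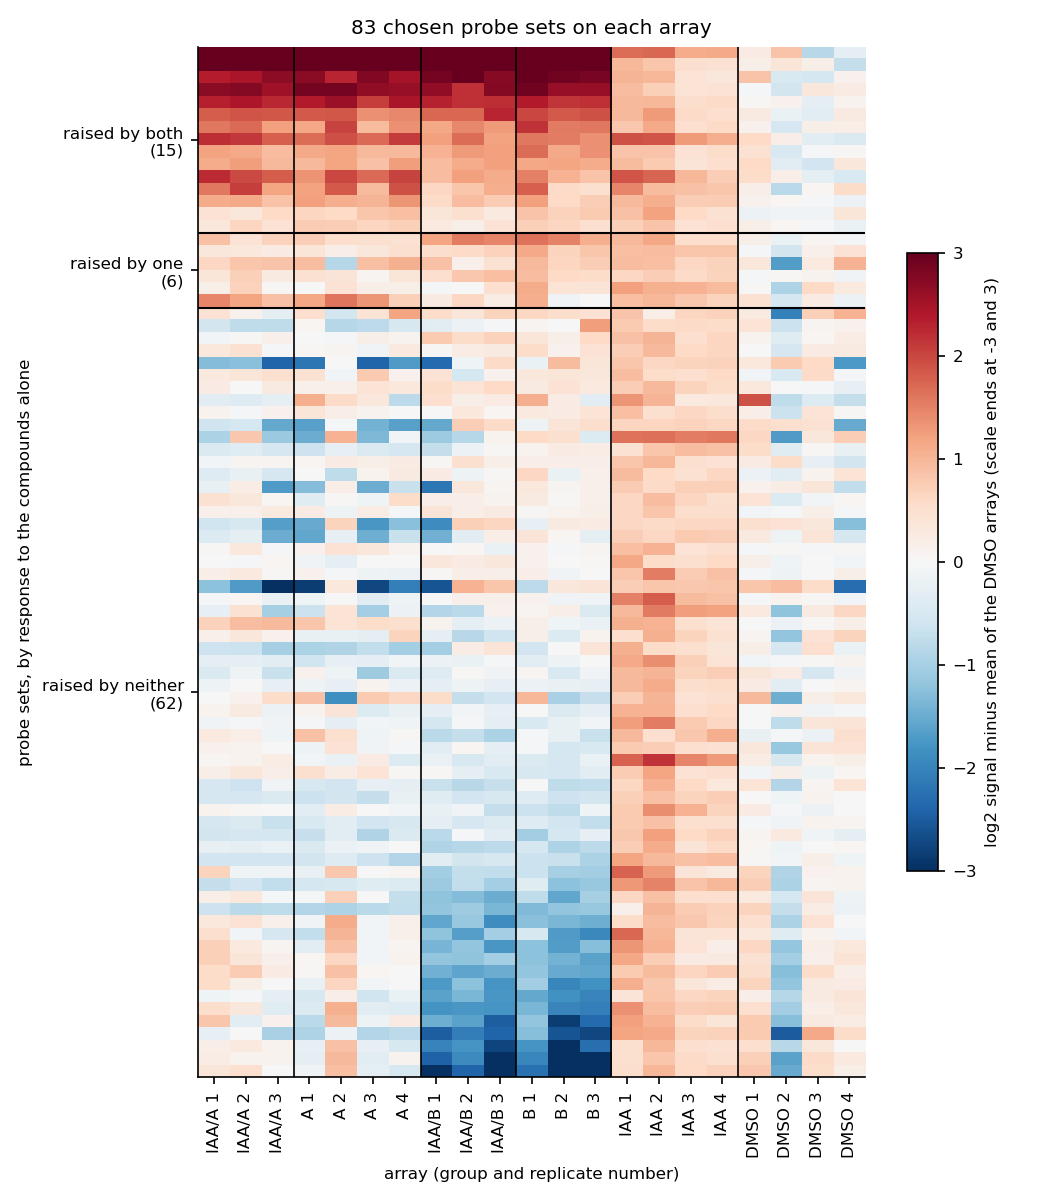
Log2 signal minus the mean of the DMSO arrays (colour, red above and blue below DMSO) for the 83 probe sets (rows) on the 21 arrays (columns, by group), with the 15 raised by both compounds on top, then the 6 raised by one and the 62 raised by neither, each ordered by B minus DMSO. The IAA columns are mostly red by the rule, the lowest rows are blue in IAA/B and B, and single columns such as DMSO 2 and A 2 break the pattern of their groups.

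Several members of the group raised by neither had solvent values split between arrays. PDF1.2, a defensin induced by jasmonate and ethylene, had 8.13, 8.17, 8.05 and 8.08 in IAA, against 7.14, 4.81, 6.85 and 7.24 in DMSO. Its IAA/A arrays gave 5.56, 7.33 and 5.39, against 5.03, 7.56, 5.17 and 6.42 in A, and its IAA/B arrays 5.42, 5.66 and 6.63, against 7.10, 6.996 and 6.10 in B. The IAA arrays were tight and above all others, whereas every other group spanned more than 0.9. Without DMSO 2, DMSO 4, A 2 and IAA/B 1, IAA minus DMSO was 1.12 for PDF1.2 and 0.96 for its close relative PDF1.2b, against 1.60 and 1.25 with all arrays. The probe set of PDF1.2b can also hybridise with similar transcripts.

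AT4G16146 had 8.88, 8.97, 8.94 and 8.96 in IAA, against 8.97, 9.05, 8.68 and 5.84 in DMSO, and DMSO 4 alone made the difference. In IAA/B it had 5.55, 9.17 and 8.97, against 7.34, 8.47 and 8.53 in B, and in A 5.28, 8.45, 5.40 and 6.09, where A 2 was high. PDC2, a pyruvate decarboxylase of ethanol fermentation that was named after its values were seen, was split in the same arrays. It had 10.83, 10.64, 10.79 and 10.78 in IAA, against 10.21, 10.30, 10.44 and 9.35 in DMSO, with 7.91, 10.42 and 10.16 in IAA/B and 8.78, 10.26, 8.60 and 9.42 in A. DMSO 4 and IAA/B 1 were low and A 2 was high for both genes, and neither met the rule without DMSO 4. Over all 83, IAA minus DMSO without these 4 arrays ran from −0.05 to 1.70 with a median of 0.59, and 3 were below 0.

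Compound A was then compared with compound B at the same dose and time, a difference that the rule did not use. With the compounds alone, 20 of the 83 were called (limma, adjusted p under 0.05), 16 higher with A and 4 lower (4.23% and 2.14% of all probe sets). Without DMSO 2, DMSO 4, A 2 and IAA/B 1 the counts were 16 higher and 12 lower (6.82% and 5.36%). With IAA present 17 were called, 15 higher in IAA/A than in IAA/B and 2 lower (1.93% and 0.888%). All of the 16 higher with A were in the group raised by neither compound. In these 16, A minus DMSO ran from −0.27 to 0.57 and B minus DMSO from −3.19 to −0.05, with medians of 0.09 and −1.42. The split was made on A minus DMSO and B minus DMSO, whose difference is A minus B. In the group raised by neither it held both below 0.6, with no lower limit. It therefore shapes these values and the group they fall in, and nothing is read from either. All A arrays lay above all B arrays in 19 of the 83 and below in 6 (8.96% and 8.0% of all probe sets), and all IAA/A arrays above all IAA/B arrays in 29 and below in 11 (11.2% and 13.9%). In 15 probe sets both comparisons were called in the same direction, 75.0% of the first and 88.2% of the second. The rule set the same upper bound on IAA/A minus A and IAA/B minus B, so the comparisons are not independent. This overlap was not counted over all probe sets, and nothing is read from it.

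Of the 16 higher with A, 8 are paired with 1 gene: 4 extensin-like genes, GH9C1, AT4G25790, UGT76D1 and AT4G13130. AT4G25790, of the CAP family related to the pathogenesis-related protein PR1, had 8.07, 9.19, 8.08 and 7.84 in A, against 6.54, 5.32 and 6.06 in B. With IAA it had 8.52, 8.62 and 8.43 in IAA/A, against 6.30, 6.55 and 5.56 in IAA/B. The differences were 2.32 ± 0.34 (SE, adjusted p = 0.000343) and 2.39 ± 0.36 (SE, adjusted p = 0.00105) (limma), and no A array overlapped a B array with or without IAA.

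GH9C1, a family 9 endoglucanase that acts on cell wall glucans and is known from root hairs, had 7.75, 8.45, 7.63 and 8.04 in A, against 6.71, 6.43 and 6.25 in B. It had 8.11, 8.21 and 7.95 in IAA/A, against 6.64, 6.86 and 6.49 in IAA/B. A minus B was 1.50 ± 0.23 (SE, adjusted p = 0.000635) and IAA/A minus IAA/B was 1.43 ± 0.25 (SE, adjusted p = 0.00318) (limma), both kept in every alternative that was run. It was the 1 member among 54 measured genes of a cell wall list, of which 2 (EXLA2 and CSLC04) were called higher with IAA. In A against B 3 genes of the list, GH9C1 among them, were called higher and 2 lower. The list medians were 0.00 and −0.05.

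AT3G54580, an extensin-like protein rich in proline, had 7.55, 9.01, 7.64 and 7.57 in A, against 6.57, 5.97 and 5.90 in B. It had 8.48, 8.29 and 7.58 in IAA/A, against 6.16, 6.21 and 6.17 in IAA/B, and 9.31, 8.88, 8.69 and 8.71 in IAA, against 8.46, 6.90, 8.15 and 8.28 in DMSO. A minus B was 1.80 ± 0.35 (SE, adjusted p = 0.00466) and IAA/A minus IAA/B was 1.94 ± 0.38 (SE, adjusted p = 0.00668) (limma). A 2 stood above the other A arrays and DMSO 2 below the other DMSO arrays, and the difference with IAA had an adjusted p of 0.0526 without IAA/A 1. The extensin-like genes AT4G08410 and AT5G06630 gave 1.59 and 1.54 for A minus B and 1.55 and 1.80 for IAA/A minus IAA/B, on probe sets that can hybridise with similar transcripts, and both calls with IAA were lost without IAA/A 1. AT3G28550, of the same kind, was called only for A minus B, at 1.46 ± 0.39 (SE, adjusted p = 0.0310), and that call was lost without A 2, A 4, B 2 or B 3.

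Of these 16, 9 were also among the probe sets in which DMSO 2 was more than 1 log2 unit low. The choice by IAA minus DMSO favours such probe sets. The count was not made over all probe sets, and nothing is read from it. GH9C1, AT3G54580 and AT4G25790 left the set without DMSO 2, an array that belongs to neither of the groups compared here. Of the 5 root markers measured, 2 moved with the same contrast. EXPA7 and EXPA18, expansins of root hair cells, were 2.09 and 2.25 higher in A than in B and 1.97 and 2.08 higher in IAA/A than in IAA/B. The other root markers measured, BGLU23, JAL33 and JAL34, differed by 0.07, 0.07 and 0.02 between A and B and by 0.10, 0.50 and 0.20 between IAA/A and IAA/B. The mean over these 5 of 11 listed root markers ran from 10.7 to 10.9 in IAA/A and 9.82 to 9.88 in IAA/B, and from 10.51 to 11.04 in A and 9.65 to 10.0 in B, beside 10.97 to 11.18 in IAA and 10.42 to 11.04 in DMSO. LHCB4.1, the 1 shoot marker measured of 12, had group means of 13.0 to 13.2, and no listed flower or seed marker was measured under its symbol. In whole seedlings fewer cells of a type and less RNA per cell cannot be told apart, and the part of these markers in the difference was not tested.

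UGT76D1 and AT4G13130 differed by less. UGT76D1, a glucosyltransferase and the 1 member among 48 measured genes of a detoxification and transport list, had 6.50, 6.74 and 6.78 in IAA/A, against 5.91, 5.54 and 5.63 in IAA/B, a difference of 0.98 ± 0.17 (SE, adjusted p = 0.00342) (limma). A minus B was 0.62 ± 0.16 (SE, adjusted p = 0.0274) (limma), a call lost without A 1, B 2 or B 3. Of that list 1 gene, UGT76D1 itself, was called higher with IAA. UGT76D1 was also among the 3 called higher in A than in B, and the list medians were −0.02 and −0.01. AT4G13130, of the Cys/His-rich C1 family, gave 0.56 ± 0.14 (SE, adjusted p = 0.0213) for A minus B and 0.60 ± 0.15 (SE, adjusted p = 0.0321) for IAA/A minus IAA/B (limma), and the second call was lost without any 1 of the 6 arrays compared. AT1G31690, the copper amine oxidase, was lower in A, at 4.77, 5.14, 4.97 and 4.89, against 5.49, 5.64 and 5.62 in B, with −0.64 ± 0.18 (SE, adjusted p = 0.0420) (limma). That call was lost in 12 of 27 alternatives.

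None of the 15 probe sets raised by both compounds was called between A and B or between IAA/A and IAA/B. Over all probe sets 4.23% and 2.14% were called higher and lower in A minus B. For IAA/A minus IAA/B the shares were 1.93% and 0.888%. With shares this low, no calls among 15 is near what all probe sets give, and nothing is read from it. The 95% intervals of A minus B for these 15 reached at most 0.69 to either side of the estimate. A difference inside its interval is not excluded. In 2 of the 15 the interval did not include 0, among them AT5G57910 at 0.02 to 0.60 (limma adjusted p = 0.191). For AT4G13180 the interval was −0.13 to 0.41, for AT5G10830 −0.33 to 0.42 and for AT4G37290 −1.04 to 0.19. Of the 6 raised by one compound 2 were called lower with A (2.14% of all probe sets). The split itself favours a difference between the compounds in this group, in either direction. The response to IAA with A minus that with B ran from −0.63 to 1.00 over the 83. The 95% intervals of this difference reached −2.59 and 2.90. The rule bounded both responses from above, with no lower limit, which shapes this range, and nothing is read from it.

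**Figure D5:**
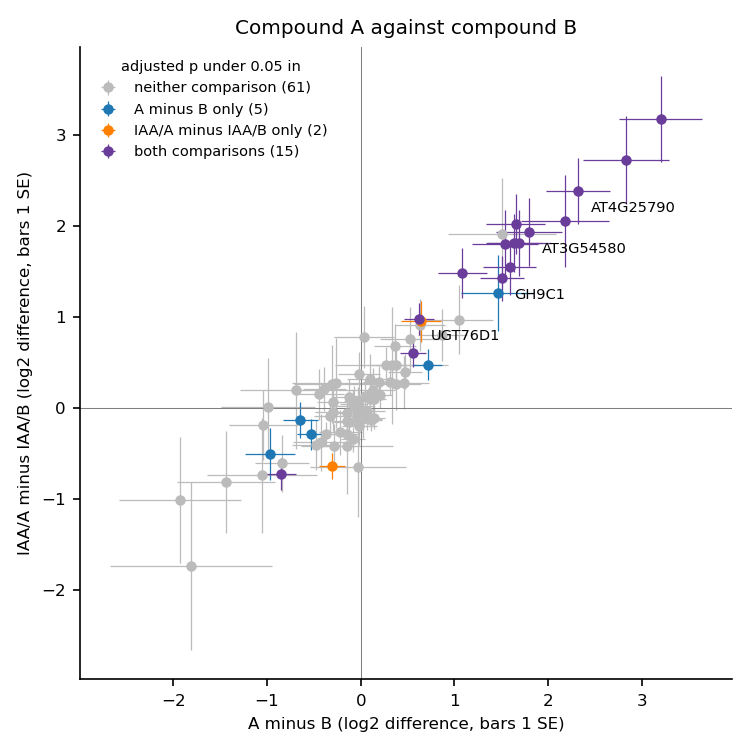
A minus B (horizontal axis) and IAA/A minus IAA/B (vertical axis) for the 83 probe sets, as log2 differences with bars of 1 SE from the limma fit, coloured by the comparison in which the adjusted p was under 0.05. The 15 called in both lie along the diagonal and all but 1 of them are above 0, with AT4G25790 at 2.32 and 2.39.

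Because the members were chosen on the differences that define them, the rule was also applied to arrays 1 and 2 of each group and the outcome read in the 9 arrays numbered 3 and 4. The arrays read contained neither IAA 2 nor DMSO 2. The rule chose 173 probe sets on arrays 1 and 2, of which 59 were among the 83. In the other arrays their IAA minus DMSO had a median of 0.19, against −0.01 over all probe sets. Above 0 were 122 of them (46.85% of all probe sets), which the reverse choice described next did not repeat. Of the 173, 24 reached 0.6 and 14 met the whole rule. The last 2 counts were not made over all probe sets, and nothing is read from them. Of the 173, 6 were called higher with IAA and none lower (limma, 0.572% and 0.0396% of all probe sets). AT4G37290 was among them at 1.68 ± 0.18 (SE, adjusted p = 0.00890), and AT2G23060 at 0.72 ± 0.11 (SE, adjusted p = 0.0490). The response to IAA was smaller with A in 137 of the 173, by a median difference of −0.23, and smaller with B in 109, by −0.17, beside −0.03 and −0.00079 over all probe sets. The remaining 36 with A and 64 with B had a larger response, as did 44.17% and 49.86% of all probe sets. No difference in response was called by limma for either compound among the 173 or among all probe sets (0.0%). In this fit B, IAA/A and IAA/B had 1 array each.

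Choosing on arrays 3 and 4 and reading in arrays 1 and 2 gave other results. The rule chose 174 probe sets, 22 of them among the 83. Their IAA minus DMSO in arrays 1 and 2 had a median of −0.08, 73 were above 0 (52.52% of all probe sets) and 14 met the whole rule. The response to IAA was smaller with A in 102 of the 174, by a median difference of −0.08, and smaller with B in 107, by −0.19, beside −0.01 and −0.02 over all probe sets. The remaining 72 with A and 67 with B had a larger response, as did 47.71% and 46.21% of all probe sets. Nothing is read from these counts. IAA was called higher for 13 and lower for 10 (1.11% and 0.809% of all probe sets). Members among those called higher were AT2G32190 at 1.51 ± 0.18 (SE, adjusted p = 0.00153), AT4G13180 at 0.90 ± 0.12 (SE, adjusted p = 0.00275) and AT3G46720 at 0.86 ± 0.12 (SE, adjusted p = 0.00379). AT2G23060, AT4G37290, AT1G19230, AT5G57910 and AT4G27290, an S-locus lectin receptor kinase, were called as well, at 1.28, 1.14, 0.97, 0.93 and 1.00 (limma). The difference in response was called for 4 with A, 1 higher and 3 lower (0.0484% and 0.0879%), and for 5 with B, 3 higher and 2 lower (0.0615% and 0.0308%), and 1 of the 83 was among them. This was the probe set 256981_at, which the annotation pairs with no gene and which was singled out after its values were seen. The difference in its response to IAA was −1.57 ± 0.22 (SE, adjusted p = 0.0241) with A and −1.58 ± 0.22 (SE, adjusted p = 0.0341) with B (limma).

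Over all arrays this probe set had 8.19, 8.50, 7.62 and 7.56 in IAA, against 6.62, 6.79, 6.70 and 6.60 in DMSO. It had 6.64, 6.73 and 6.47 in IAA/A, against 6.54, 6.70, 6.36 and 6.53 in A, and 6.66, 6.84 and 6.82 in IAA/B, against 6.82, 6.57 and 6.58 in B. The IAA arrays lay above all others, and all other groups overlapped. It met the rule in each leave-out and was called for IAA in both sets of arrays, at 0.94 in arrays 3 and 4 and 1.64 in arrays 1 and 2. AT4G37290 and AT2G23060 were also called for IAA in both sets, but the difference in their response with a compound was called in neither.

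The thresholds cut through a continuous range. Just inside the limit for IAA minus DMSO lay AT1G11210 at 0.606, and just outside it CP1, AT3G44190 and AT4G34950 at 0.5996, 0.599 and 0.5986. For IAA/A minus A the nearest named member was UGT76D1 at 0.29 and the nearest named gene outside AT2G36220 at 0.33. For IAA/B minus B PUCHI lay inside at 0.298, with AT5G09800 at 0.33 and HRGP1 at 0.34 outside.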

How the data were processed

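Per the labels, total RNA of 21 seedling samples was hybridised to ATH1 arrays. The deposited series matrix holds the authors' processed values, 1 signal on a log2 scale per probe set and array. They ran from 3.02 to 13.9, with array medians of 7.16 to 7.24. The sources used here do not give how the authors summarised, scaled and background-corrected the probes, and the log base is read from the values. Of 22810 probe sets 64 controls were left out, and 13513 of the 22746 tested are paired with 1 gene, 503 with several and 8730 with none by the platform annotation, updated through RefSeq.

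limma 3.58.1 in R 4.3.3 was fitted to all 22746 probe sets and 21 arrays, with 1 mean per group, an intensity trend and Benjamini-Hochberg adjustment (threshold 0.05). Names follow a rule: members paired with 1 gene, the 12 per subset with the largest IAA minus DMSO, those on a gene list, up to 8 with the largest called difference per comparison, the 3 on each side of each threshold and up to 8 from the held-out arrays. Exceptions are marked. The members, the gene lists (Aux/IAA, GH3, LBD and HD-ZIP II, cell wall, detoxification and transport) and the tests were chosen with earlier results of these data known. Replicate numbers were not taken as pairs, since the labels give them no shared source and correlations of same-numbered deviations ran from −0.43 to 0.54 (16 of 21 arrays were nonetheless closest to their own number). The files give 1 chip lot and no batch. The fits were tested on simulated data of 22746 probe sets with 200 changed. For changes of 0.5, 1 and 2 log2 units, the A minus B fit recovered 55.2%, 95.5% and 98.5%, with 7 false calls. The IAA/A minus IAA/B fit recovered 53.7%, 89.6% and 98.5%, with 10. These shares hold for the simulated probe sets and were not measured for the members. Median within-group SD in A was 0.26 for the members and 0.14 over all tested probe sets. Among the members, A minus B was not called at −1.81 for AT4G16146 or at 1.51 for a probe set paired with no gene. It was called at 1.50 for GH9C1. Alternatives covered quantile scaling, low-signal filters, array weights, the trend, a replicate block, the thresholds and leaving out arrays.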

Additional observations from a re-analysis of the deposited data

Results flagged for a closer look

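Among 75 groups of 4 arrays from the 25 genes given by array, 7 had an array standing apart from the other 3. Chance flags about 1 in 20 groups where the values were not used to choose the genes. Here the same IAA, A and DMSO values chose them, which can favour single low or high arrays. No excess is read from the count. DMSO 2 was far below the other DMSO arrays for PDF1.2, at 4.81, and for GH9C1, at 7.39. DMSO 4 was far below them for AT4G16146, at 5.84. A 2 was far above the other A arrays for AT3G54580, at 9.01, and far below them for AT1G80130, at 8.95. IAA 2, whose experiment text names compound B, was above the other IAA arrays for AT2G23060, at 6.79, and for AT4G25790, at 9.31. What set these arrays apart was not tested.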

How the results depend on the processing

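The rule chose 83 probe sets with all arrays, 136 with IAA minus DMSO of at least 0.5, 28 with at least 0.8, and 64 to 140 when 1 array was left out. Group medians in place of means chose 56, of which 43 were shared, and quantile scaling 70, all shared. With 0.3 in place of 0.6 as the limit for the compounds alone, 23 members in place of 15 were raised by both. Calls in A minus B numbered 20, 16 higher and 4 lower (4.23% and 2.14% of all probe sets). With array weights they numbered 30, 20 higher and 10 lower (8.2% and 6.35%). Without DMSO 2, DMSO 4, A 2 and IAA/B 1 they numbered 28, 16 higher and 12 lower (6.82% and 5.36%). With 1 array left out, 11 to 23 were called, lowest without B 2 (11) and B 3 (12). All probe sets then gave 1.66% higher and 0.651% lower without B 2, and 1.6% and 0.536% without B 3. Calls in IAA/A minus IAA/B numbered 17, 15 higher and 2 lower (1.93% and 0.888%). With only the arrays of the groups compared they numbered 28, 23 higher and 5 lower (3.04% and 1.1%). With array weights they numbered 27, 24 higher and 3 lower (6.86% and 8.61%). With 1 array left out, 9 to 18 were called, lowest without IAA/A 1 (9) and IAA/B 3 (11). All probe sets then gave 0.849% higher and 0.22% lower without IAA/A 1, and 0.998% and 0.229% without IAA/B 3. With the replicate number as a block the 2 counts were 20 and 17. Over all probe sets 4.85% and 2.51% were then called higher and lower in the first, and 2.29% and 1.1% in the second. Of 472 refits for the named called genes, 431 kept call and direction, 41 lost the call and 0 reversed. Choosing on arrays 3 and 4 and reading in 1 and 2 gave a median IAA minus DMSO of −0.08 in place of 0.19. For IAA it gave 13 calls higher and 10 lower (1.11% and 0.809% of all probe sets). For the difference in response it gave 1 higher and 3 lower with A (0.0484% and 0.0879%). With B it gave 3 higher and 2 lower (0.0615% and 0.0308%). The cause of these changes was not tested. A block for scan or hybridisation batch was not run, since the files name none. B, IAA/A and IAA/B have 1 array each among arrays 3 and 4, assumed to vary like the other groups.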
